A study of Mus musculus with 20 samples.

Results

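The genes described here are 45 interferon-stimulated genes of the mouse, chosen by name as transcripts known to rise in cells exposed to interferon. They were looked up by gene symbol in the count tables of a pair of RNA-seq experiments on p19/Nras cells. The table of the Myc experiment holds 37 of them among 13107 genes, and that of the hydroxyurea (HU) experiment holds 22 among 11210 genes, all of which are also among the 37. Usp18, Oas1a, Mx1, Mx2, Ifi44, Cmpk2, Zbp1 and Sp100 were in neither table and were not analysed here. Irf7, Ifit1, Ifit3, Isg15, Oasl1, Oasl2, Rsad2, Ifih1, Dhx58, Rtp4, Parp14, Trim21, Gbp2, Gbp3 and Igtp were analysed in the Myc experiment alone. Nothing is said here of the level of a gene that was not in a table.

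All libraries came from p19/Nras cells, which are mouse liver cancer cells grown in culture from a tumor in which Nras was expressed in an animal without p19/Arf. The Myc experiment compared Trim33-WT cells, which carried a control guide RNA (sgCtrl), with the Trim33-KO1 and Trim33-KO2 lines, which carried sgTrim33. Each was studied with the empty vector pWZL (Ctrl) and with a vector for Myc. The HU experiment compared Trim33-WT (sgCtrl) with 1 Trim33-KO line (sgTrim33), either given vehicle (untreated) or exposed to 1 mM HU, an inhibitor of ribonucleotide reductase, for 4 h. Each of these 10 groups has 2 libraries. Nothing in the labels says that they came from separate cultures, so the p-values measure the spread between these libraries, which may be technical. WT and KO are separate lines, so that an effect of Trim33 loss and a difference between lines of other origin cannot be told apart. No group was exposed to interferon.

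Type I interferons bind the receptor pair Ifnar1 and Ifnar2, whose kinases Jak1 and Tyk2 phosphorylate Stat2. Stat2 and Irf9 are subunits of the complex ISGF3, which binds the interferon-stimulated response element (ISRE) in front of many of the genes described here. Irf1 and Irf7, which are themselves induced, bind similar letters and extend the response. The proteins made sense foreign RNA or DNA, block viral translation and assembly, modify other proteins with Isg15 or ADP-ribose, or attract leukocytes, and many cancer cells keep some of these genes active without infection.

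Total counts were 14753177 to 17949430 per library in the Myc experiment and 2315327 to 3082202 in the HU experiment, so the latter is less precise for rare genes. Trim33 mRNA was 245.6 and 258.1 CPM (counts scaled to a common library size) in WT Ctrl, 123.4 and 130.4 for KO1 Ctrl, with 200.9 and 206.8 for KO2 Ctrl. In the HU experiment it was 125.2 to 142.2 CPM in the 4 WT libraries and 43.8 to 52.2 in the 4 KO libraries. With the Myc vector it went against the labels, since the libraries labelled WT Myc held 130.7 and 154.7, the KO1 Myc libraries 185.4 and 192.5, and the KO2 Myc libraries 124.1 and 124.7. Myc mRNA was 432.8 and 439 CPM in WT Ctrl and 455.9 and 457.6 under the label WT Myc, which did not pass the test (log2FC 0.067, adjusted p = 0.31, edgeR). It was at 186.4 to 218.5 in the KO Ctrl libraries and 459.4 to 645.8 in the KO Myc libraries (log2FC 1.73 in KO1 and 1.16 in KO2). The difference between the KO lines also turned over with the Myc vector. The difference between KO1 and KO2 with Ctrl and the same difference with Myc had a Pearson correlation of −0.748 across the 13107 genes, and of −0.56 across the 37 members. Of 1301 genes called in both comparisons of the lines, 1265 (97.2%) differed in opposite directions, including all 5 of the members called in both. The libraries labelled KO1 Myc correlated at 0.9713 with KO1 Ctrl and at 0.9848 with KO2 Ctrl, and those labelled KO2 Myc at 0.9652 with KO2 Ctrl and 0.9845 with KO1 Ctrl. Directions drawn from the Myc libraries therefore rest on their labels, and comparisons of Myc with Ctrl within a KO line are also given against the Ctrl libraries of the other line. Of the markers of hepatocytes, Afp, Krt8 and Krt18 were in the tables (3 of 11), and Alb, Ttr and Hnf4a were in neither table. The 3 summed to 3770 to 3920 CPM in WT Ctrl, 3130 to 3390 in KO Ctrl, 2810 to 3220 in WT and KO1 Myc, and 1860 to 1900 in KO2 Myc, and in the HU libraries to 2060 to 2310 in WT and 2450 to 2870 in KO. Of the leukocyte markers only Cd68 and Cd14 were found (2 of 10), with 22.2 to 22.4 CPM in sum in WT Ctrl, 44.0 to 53.0 in KO1 Ctrl and 30.6 to 38.5 in the other groups of the Myc experiment. Fibroblast markers (5 of 7) summed to 716 to 796 CPM in KO1 Ctrl and 719 to 734 in the libraries labelled KO2 Myc, against 107 to 228 in the other 4 groups. In the HU libraries 3 of them summed to 57.5 to 64.7 CPM in WT and 8.02 to 13.8 in KO. The part of these markers in the results was not tested, and in such bulk samples fewer cells of a type and less RNA per cell cannot be told apart.

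The ISRE is shown first, since it is the sequence through which ISGF3 acts. RefSeq promoters of the build GRCm38.p6, from 250 bases before to 50 bases after the start site, were found for 35 of the 45 genes. They were searched for the core of the ISRE, GAAANNGAAA, on either strand (TTTCNNTTTC when read on the other strand). The letters were found for 16 of the 35 genes (45.7%), and in 3.44% of all 32851 promoters of the reference, or for 3.99% of its 27025 genes. The letters of the related element GAS, TTCNNNGAA, were found for 8 of the 35 genes and in 8.3% of all promoters. The stretches around the ISRE letters are given for the 9 genes that hold them and had at least 1 CPM on average in the Myc experiment. Each was located in mm9, the build of the study, by an exact match of the whole promoter. It is written 5′ to 3′ on the strand of its gene, with cores that do not overlap an earlier marked one in capitals.
Bst2 (chr8:74061472-74061521, minus strand): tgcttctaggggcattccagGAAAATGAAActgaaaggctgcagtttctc
Cxcl10 (chr5:92778099-92778148, minus strand): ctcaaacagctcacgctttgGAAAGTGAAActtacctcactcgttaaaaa
Ddx58 (chr4:40186827-40186876, minus strand): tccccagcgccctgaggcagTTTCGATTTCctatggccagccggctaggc
Eif2ak2 (chr17:79281865-79281914, minus strand): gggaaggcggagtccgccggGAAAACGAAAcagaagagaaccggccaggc
Ifit1 (chr19:34715255-34715323, plus strand): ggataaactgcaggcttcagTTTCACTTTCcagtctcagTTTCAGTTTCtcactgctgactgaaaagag
Irgm1 (chr11:48684923-48684972, minus strand): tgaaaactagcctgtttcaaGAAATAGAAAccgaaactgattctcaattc
Isg15 (chr4:155574964-155575025, minus strand): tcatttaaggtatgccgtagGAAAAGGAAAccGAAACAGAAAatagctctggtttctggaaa
Stat2 (chr10:127707312-127707361, plus strand): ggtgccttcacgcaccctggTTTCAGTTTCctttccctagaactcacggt
Trim21 (chr7:109713954-109714003, minus strand): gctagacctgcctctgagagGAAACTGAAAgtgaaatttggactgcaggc
Isg15 and Ifit1 hold the core in capitals at 2 places within the stretch. A core that shares letters with an earlier one in capitals was not marked. Such a core follows the marked one in Bst2, Irgm1 and Trim21, and lies between the 2 marked ones in Isg15. Counted from the start site, the first letter of the first core lay at −222 in Stat2, −213 in Cxcl10, −130 in Bst2, −104 in Ifit1, −78 in Isg15 and −30 in Irgm1, and just behind the start in Ddx58, Trim21 and Eif2ak2. The windows of Parp12, Herc6, Oasl1 and Ifit2, which had some of the largest differences between KO and WT cells described below, held no such letters, nor did those of Irf1, Irf7, Irf9 and Adar. A match is a description of the letters in this window and says nothing of binding.

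Per kilobase of annotated exon, the most abundant members in the Myc experiment were Lgals3bp, a secreted glycoprotein (32.1 CPM per kilobase over the 12 libraries), Bst2, or tetherin, which holds budding virions at the cell surface (29.6), and Tmem173, or STING, the adaptor that relays the sensing of cytosolic DNA (21.5). The lowest of the 36 members with an annotated length were Xaf1 (0.0865) and Gbp3 (0.0889). In the HU experiment the order again began with Lgals3bp and Tmem173 (16.6), while Bst2 had 4.78 CPM per kilobase, and the lowest of the 21 with a length was Xaf1 (0.534). In the Myc experiment 14 of the 37 members had at least 10 CPM on average, 14 had 1 to 10 CPM and 9 had less than 1. The latter include Irf7, Ifit3, Ifih1, Rsad2, Dhx58, Gbp2, Gbp3 and Igtp, whose fold changes rest on few reads.

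With the Ctrl vector, the members moved in both directions in the KO lines. In KO1 against WT, 8 of 37 were called higher and 10 lower (adjusted p under 0.01, edgeR's quasi-likelihood test), while of all genes 25.5% were called higher and 26.7% lower. The median log2 fold change (log2FC) of the members was −0.09, against −0.0036 for all genes. In KO2, 5 were called higher and 14 lower, against 23.3% and 26.6% of all genes, and the median was −0.44, against −0.01. The share called in either direction was near that of the whole table in both lines. It was 48.6% against 52.2% in KO1 and 51.4% against 49.9% in KO2. In KO2 the 14 lower of 37 lay above the share of all genes called lower. With DESeq2 9 were lower in KO2, where 37.8% of members and 44.4% of all genes were called in either direction. Absolute changes were larger than in the whole table, with medians of 0.62 and 0.69 for the members and 0.39 and 0.38 for all genes. The members were rarer, with 18 of 37 at a mean of at least 5 CPM against 10439 of 13107 genes. The medians were not compared at like levels. At 5 CPM or more the shares called were 61.1% of members against 55.3% of genes in KO1, and 55.6% against 54.8% in KO2.

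Many members were higher under the label WT Myc than in WT Ctrl, although Myc mRNA was not called between these groups. In the former, 18 of 37 members were called higher than in WT Ctrl and 1, Adar, lower, while 21.6% and 22.7% of all genes were called higher and lower. The median log2FC was 0.84, against 0.0069 for all genes. The values of the members in the libraries labelled KO Myc were mostly lower than in those labelled WT Myc. For KO1 Myc, 1 member was called higher and 25 lower, against 12.6% and 12.5% of all genes. The median log2FC was −1.26, against −0.0104 for all genes. For KO2 Myc, 2 were called higher and 24 lower, against 17.2% and 18% of all genes, with a median of −0.92, against −0.00377. Counting all members, called or not, 34 of 37 lay below 0 in the first comparison and 32 of 37 in the second. The share of all genes below 0 was not counted, though their medians lay near 0. These comparisons share the WT Myc libraries, and those with the Ctrl vector share WT Ctrl. The WT Myc pair was the least alike of the Myc experiment. Its mean squared difference per gene was 11 in units of counting noise, against 2.21 to 4.52 in the other groups. In members with the ISRE letters, the median against WT Myc was −1.26 for KO1 Myc and −0.92 for KO2 Myc (15 genes), and in those with a promoter but no such letters it was −0.72 and −0.78 (16 genes), a difference that was not tested.

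**Figure D1:**
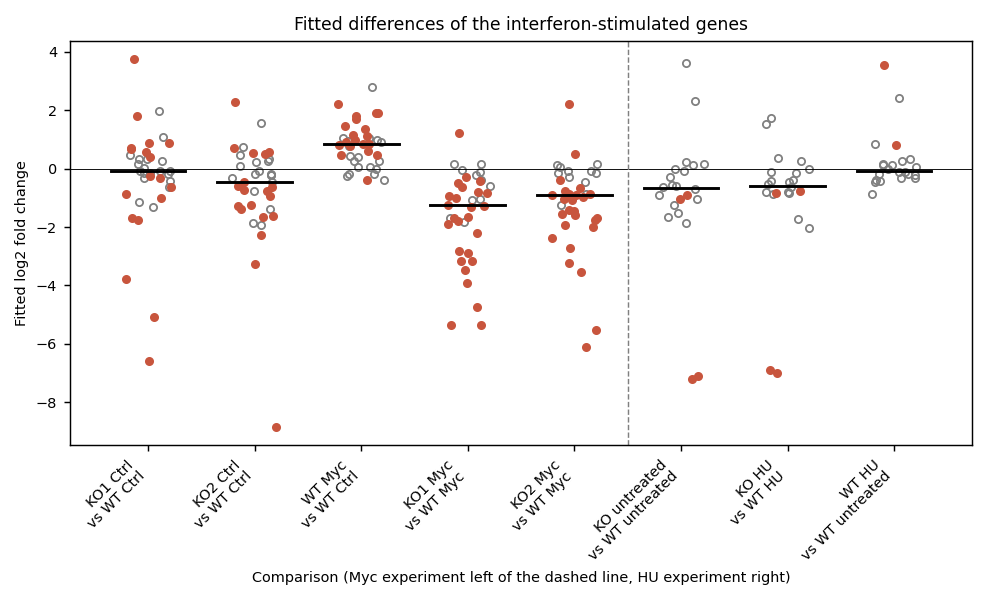
Fitted log2 fold change (vertical axis) of each interferon-stimulated gene in 8 comparisons (horizontal axis), 37 genes in the 5 comparisons of the Myc experiment and 22 in the 3 of the HU experiment. Filled points were called, open points were not, and bars are medians, which lie at 0.84 in WT Myc against WT Ctrl and at −1.26 and −0.92 in KO1 and KO2 Myc against WT Myc. Fitted values of genes near 0 counts, such as the lowest points, are not bounds.

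**Figure D2:**
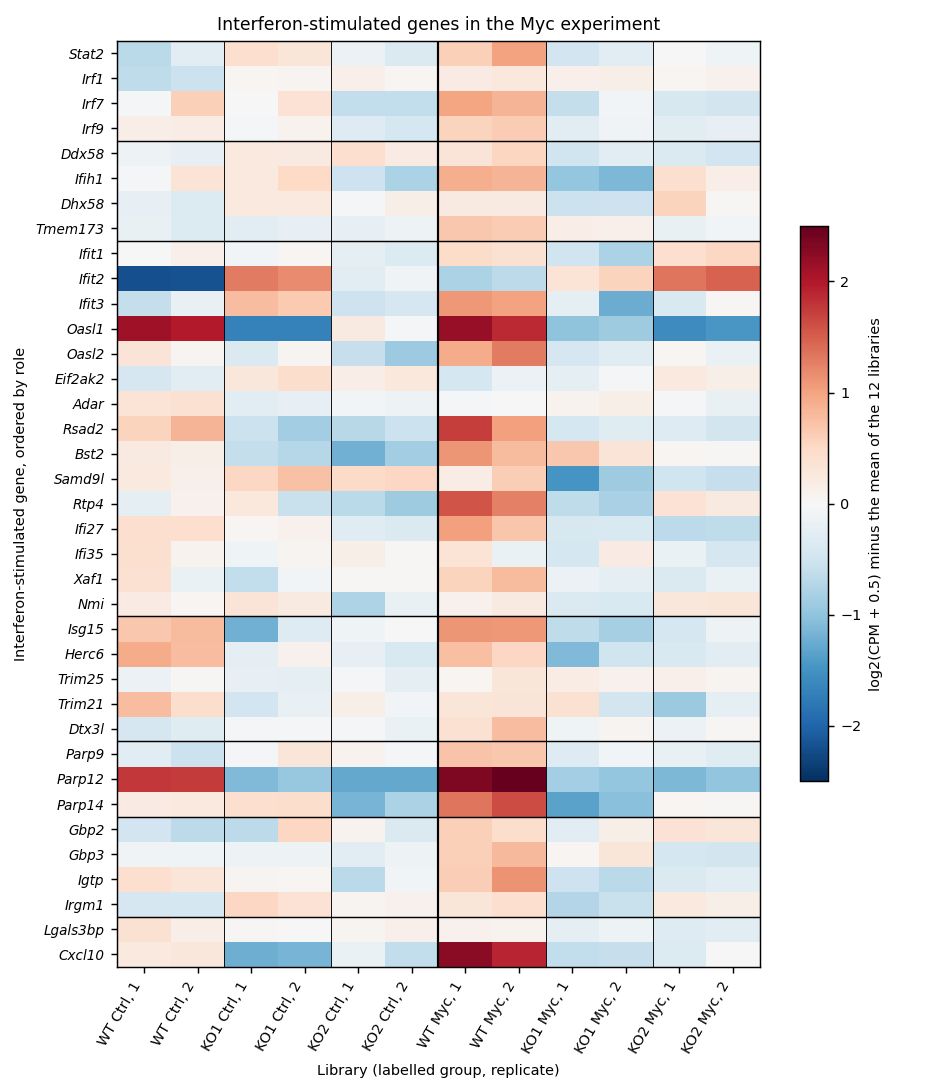
Level of the 37 interferon-stimulated genes (rows, grouped by role with the transcription factors at the top) in the 12 libraries of the Myc experiment (columns), as log2(CPM + 0.5) minus the mean of each gene over the libraries. The pair of libraries labelled WT Myc is red in most rows, Parp12 and Oasl1 are dark red in the 4 WT libraries, and Ifit2 is darkest blue in WT Ctrl.

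Among the transcription factors, Stat2, a subunit of ISGF3 (Entrez 20847), was at 4.31 and 5.81 CPM in WT Ctrl, 9.78 and 9.00 for KO1 Ctrl, with 6.40 and 5.46 for KO2 Ctrl. With Myc it was at 11.1 and 14.8 under the WT label, in KO1 Myc at 5.00 and 5.93, and in KO2 Myc at 7.18 and 6.63. The WT Myc libraries were thus the highest, and with Ctrl only KO1 stood apart from WT. Its log2FC was 0.89 in KO1 Ctrl (standard error 0.183, adjusted p = 0.000487), 0.23 in KO2 Ctrl (not called) and 1.36 in WT Myc against WT Ctrl (standard error 0.172, adjusted p = 6.08e-06). The call in KO1 Ctrl was lost without WT Ctrl replicate 1 (log2FC 0.69). Against WT Myc, Stat2 fell by 1.26 in KO1 Myc and by 0.92 in KO2 Myc on the log2 scale.

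Irf1, an activator induced above all by interferon-gamma (Entrez 16362), was at 29.9 and 32.1 CPM in WT Ctrl and lay between 48.6 and 56.7 in all other libraries of the experiment. WT Ctrl was therefore the only low group, without overlap with any other. The log2FC was 0.65 in KO1 Ctrl (adjusted p = 6.64e-07), 0.69 in KO2 Ctrl (adjusted p = 4.08e-07) and 0.84 in WT Myc (adjusted p = 6.9e-08). Between the Myc libraries no difference was called (log2FC −0.11 and −0.15 for KO1 and KO2 against WT).

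Irf7, the factor that amplifies type I interferon production (Entrez 54123), was rare, with 0.848 and 1.57 CPM in WT Ctrl, 0.865 and 1.25 for KO1 Ctrl, with 0.392 and 0.390 for KO2 Ctrl. The libraries labelled WT Myc held 2.21 and 1.95, KO1 Myc 0.407 and 0.803, and KO2 Myc 0.534 and 0.497. It was called lower in KO2 Ctrl (log2FC −1.62, adjusted p = 0.00665). The call was lost without WT Ctrl replicate 2 (log2FC −1.10), without either KO2 Ctrl library and with DESeq2. Against WT Myc it fell by 1.78 in KO1 Myc, a call lost without KO1 Myc replicate 1 (log2FC −1.34), and by 2.00 in KO2 Myc.

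Irf9, the DNA-binding subunit of ISGF3 (Entrez 16391), was at 9.18 and 9.30 CPM in WT Ctrl, 7.98 and 8.74 for KO1 Ctrl, with 6.40 and 5.85 for KO2 Ctrl. It was at 12.3 and 12.9 in WT Myc, 6.744 and 7.598 in KO1 Myc, and 6.70 and 6.96 in KO2 Myc. Each WT group lay above both KO groups with the same vector. The fall with Ctrl passed the test in KO2 (log2FC −0.59, adjusted p = 0.000875, lost without KO2 Ctrl replicate 2 at −0.53) and not in KO1 (log2FC −0.14, adjusted p = 0.323). With Myc it was −0.81 in KO1 and −0.88 in KO2 (adjusted p = 4.52e-05 and 1.19e-05). Taking the 4 factors together, 3 were called higher in WT Myc than in WT Ctrl, and 3 were called lower than there under either KO label with Myc, Irf7 being the exception to the first and Irf1 to the second. The higher level of Irf9 in WT Myc than in WT Ctrl (log2FC 0.45, adjusted p = 0.00325) was lost without either WT Ctrl library or WT Myc replicate 2 (0.41 to 0.46) and with DESeq2.

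**Figure D3:**
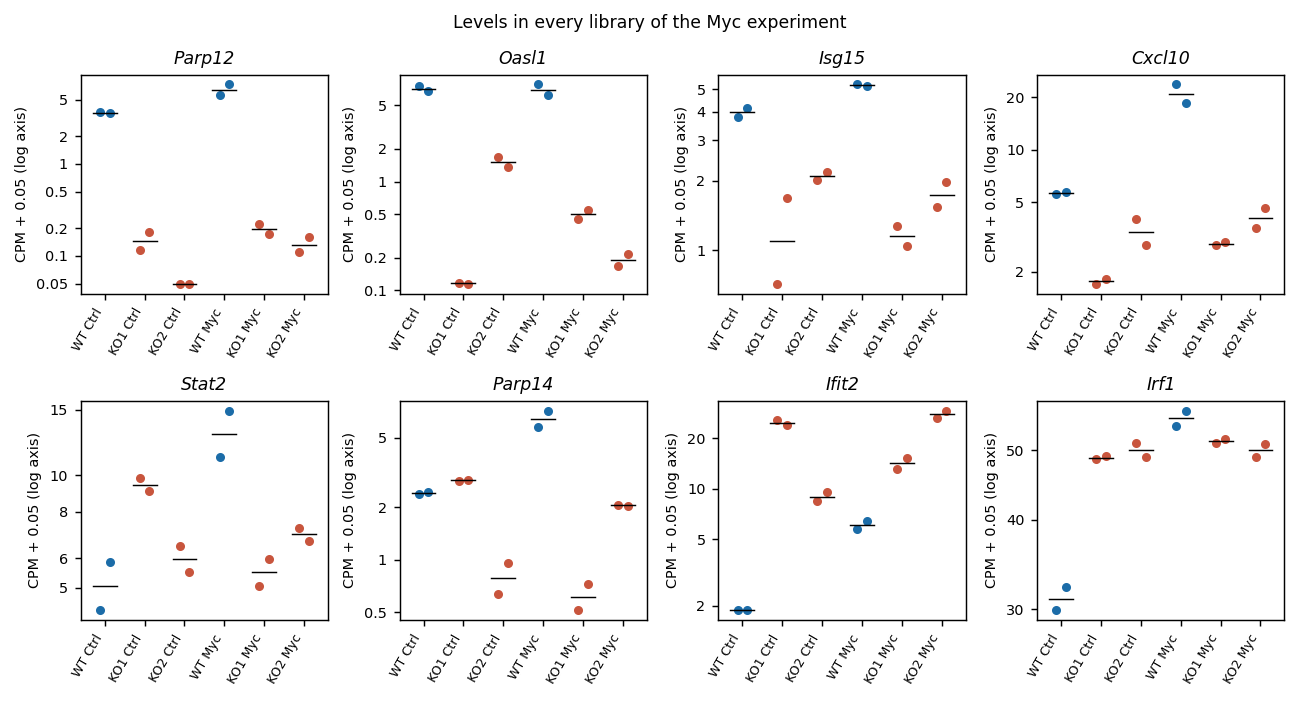
CPM + 0.05 on a log axis (vertical) of 8 interferon-stimulated genes in each library of the 6 groups of the Myc experiment (horizontal axis, blue for WT and red for KO). Bars are geometric means of the 2 libraries. Parp12 lies near 0 in every KO library, Isg15 and Cxcl10 are higher in WT than in KO, Irf1 is low in WT Ctrl alone, and Ifit2 is lowest in WT Ctrl and highest in KO1 Ctrl and KO2 Myc.

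Ddx58, which encodes the RNA sensor RIG-I (Entrez 230073), was at 16.9 and 15.8 CPM in WT Ctrl and 21.3 to 24.9 in the 4 KO Ctrl libraries. It was called higher in KO1 (log2FC 0.41, adjusted p = 0.00499) and in KO2 (log2FC 0.50, adjusted p = 0.00117), although the former call was lost without any 1 of its 4 libraries (log2FC 0.36 to 0.46) and with DESeq2, and the latter without WT Ctrl replicate 2 (0.45) or KO2 Ctrl replicate 1 (0.38). With Myc the order was the opposite, with 23.0 and 26.9 in WT Myc and 12.8 to 15.01 in the 4 KO Myc libraries (log2FC −0.85 and −0.88, adjusted p = 2.08e-05 and 8.1e-06). The difference of Myc from Ctrl for Ddx58 thus itself differed between KO and WT (interaction log2FC −1.26 for KO1 and −1.38 for KO2).

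Tmem173 was called in neither KO line with Ctrl, at 37.7 to 44.1 CPM in all 6 libraries. WT Myc libraries had 77.0 and 75.4, those for KO1 Myc 54.2 and 52.8, and those for KO2 Myc 42.3 and 46.1, so that the libraries labelled WT Myc stood above the rest. Its log2FC was 0.92 in WT Myc against WT Ctrl (adjusted p = 4.82e-08), and against WT Myc it fell by 0.51 in KO1 Myc and 0.78 in KO2 Myc. Ifih1, which encodes the long RNA sensor MDA5, was rare and had at most 1 count in each library labelled KO1 Myc, against 24 and 25 counts in WT Myc, a ratio of 50.7 with a 95% counting interval of 8.68 to 2040. In KO2 Myc it was at 0.949 and 0.718 CPM and was not called.

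The 3 members from the Ifit family, RNA-binding proteins that block translation of viral RNA, lie near each other on chromosome 19 of mm9 and did not move together. Ifit2 (Entrez 15958, chr19:34625184-34650909) was at 1.84 and 1.85 CPM in WT Ctrl, 25.7 and 23.8 for KO1 Ctrl, with 8.36 and 9.50 for KO2 Ctrl. For WT Myc the values were 5.66 and 6.33, those for KO1 Myc 13.0 and 15.3, and those for KO2 Myc 26.3 and 29.1. Every KO library was above every WT library, and KO1 was above KO2 with Ctrl and below it with Myc. The log2FC was 3.74 in KO1 Ctrl (standard error 0.157, adjusted p = 7.27e-12) and 2.27 in KO2 Ctrl (standard error 0.186, adjusted p = 2.88e-08), the largest called rises among the members there. Ifit1 (Entrez 15957) was at 2.26 and 2.53 CPM in WT Ctrl and 1.69 to 2.37 in the KO Ctrl libraries, and no difference was called (log2FC −0.09 and −0.44). With Myc it was at 3.32 and 3.13 in WT, 1.45 and 1.11 for KO1, with 3.20 and 3.48 for KO2, and fell in KO1 alone of the KO lines against WT (log2FC −1.32, adjusted p = 0.000243). The third, Ifit3, was at 0.283 and 0.547 in WT Ctrl, 1.53 and 1.38 for KO1 Ctrl, with 0.327 and 0.390 for KO2 Ctrl. Its rise in KO1 Ctrl was called (log2FC 1.78, adjusted p = 0.00942). The call was lost without any 1 of the 4 libraries, with values from 1.40 to 2.33, and with DESeq2. Near-identical copies of Ifit1 and Ifit3 exist in the mouse, so the reads of these genes may have been split between them.

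Oasl1, which restrains the translation of Irf7 (Entrez 231655), had the largest fall in KO1 Ctrl. It was at 7.42 and 6.70 CPM in WT Ctrl, 0.0665 and 0.0657 for KO1 Ctrl (1 count in each library), with 1.63 and 1.30 for KO2 Ctrl. In WT Myc it was at 7.74 and 6.21, in KO1 Myc at 0.407 and 0.494, and in KO2 Myc at 0.119 and 0.166. No KO library came near the WT libraries, and the line with fewer reads was KO1 with Ctrl and KO2 with Myc. The ratio of WT to KO1 Ctrl was 107 (95% counting interval 29.1 to 887), and the log2FC in KO2 Ctrl was −2.26 (adjusted p = 1.08e-07). In KO2 Myc against WT Myc the ratio was 48.5 in favour of WT (20.5 to 151), and in KO1 Myc the log2FC was −3.93 (adjusted p = 8.13e-09). Oasl2, a relative that starts 26.3 kb away on the same strand of chromosome 5, was at 1.908 and 1.504 CPM in WT Ctrl and 0.520 to 1.51 in the KO Ctrl libraries. It was called lower in KO2 Ctrl only (log2FC −1.38, adjusted p = 0.0042). That call was lost without WT Ctrl replicate 1 or KO2 Ctrl replicate 2 (log2FC −1.2 and −1.11) and with DESeq2. With Myc it was at 3.12 and 4.20 in WT against 0.930 to 1.48 in KO (log2FC −1.89 and −1.45, both called).

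Rsad2, or viperin, an enzyme that makes a chain-terminating nucleotide, had 12 and 17 counts in WT Ctrl and 0 to 2 counts in the KO Ctrl libraries. WT was higher by a ratio of 15.2 against KO1 (95% counting interval 3.85 to 132) and of 10.3 against KO2 (3.19 to 52.9), and both falls were called, that in KO2 not without WT Ctrl replicate 2 or KO2 Ctrl replicate 1. Bst2 (Entrez 69550) was at 23.8 and 22.6 CPM in WT Ctrl, 13.3 and 12.2 for KO1 Ctrl, with 8.56 and 10.9 for KO2 Ctrl. It was higher in WT Myc, at 43.9 and 35.6 (log2FC 0.77, adjusted p = 6.4e-05). It was also higher with Myc in both KO lines, at 32.8 and 25.6 in KO1 Myc and 21.1 and 20.8 in KO2 Myc, and these differences were called against the Ctrl libraries of either KO line. In the other direction, Eif2ak2, or PKR, the kinase that halts translation on double-stranded RNA, was at 29.96 and 33.4 CPM in WT Ctrl and 45.3 to 54.9 in KO Ctrl (log2FC 0.72 and 0.57, adjusted p = 1.16e-05 and 0.000148). Adar, which edits double-stranded RNA, fell from 69.1 and 71.9 CPM in WT Ctrl to 44.9 to 52.1 in the KO Ctrl libraries (log2FC −0.62 and −0.47), and to 53.7 and 54.5 in WT Myc (log2FC −0.38, adjusted p = 0.000154).

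Samd9l, an antiviral factor that limits growth (Entrez 209086), was at 11.4 and 10.5 CPM in WT Ctrl and 13.4 to 16.1 in KO Ctrl, with no call. WT Myc libraries had 10.9 and 14.9, those for KO1 Myc 3.08 and 4.88, and those for KO2 Myc 6.52 and 6.19. The KO Myc libraries lay below all 8 others, and against WT Myc the log2FC was −1.71 in KO1 and −1.03 in KO2 (adjusted p = 3.27e-06 and 0.000117). Rtp4, a chaperone of receptors at the cell surface, was at 0.707 and 1.02 CPM in WT Ctrl and 3.71 and 2.90 in WT Myc (log2FC 1.91, adjusted p = 0.000112), against 0.407 and 0.309 in KO1 Myc and 1.30 and 1.16 in KO2 Myc. Ifi27 was lower in KO than in WT with either vector. Its values were 28.8 and 28.6 CPM in WT Ctrl, 16.6 to 23.2 in KO Ctrl, 44.1 and 34.8 in WT Myc, and 13.4 to 16.4 in KO Myc. The fall was called in each of the 4 comparisons. The call in KO1 Ctrl (log2FC −0.34, adjusted p = 0.0088) was lost without any 1 of its 4 libraries and with DESeq2.

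Isg15, the ubiquitin-like modifier (Entrez 100038882), was at 3.74 and 4.10 CPM in WT Ctrl, 0.665 and 1.64 for KO1 Ctrl, with 1.96 and 2.15 for KO2 Ctrl. For WT Myc the values were 5.20 and 5.15, those for KO1 Myc 1.22 and 0.988, and those for KO2 Myc 1.48 and 1.93. All KO libraries lay below all WT libraries. The log2FC was −1.76 in KO1 Ctrl (standard error 0.288, adjusted p = 5.54e-05) and −0.93 in KO2 Ctrl (standard error 0.253, adjusted p = 0.00446, which missed 0.01 without any 1 of the 4 libraries and with DESeq2). With Myc it was −2.21 and −1.59 (adjusted p = 7.53e-06 and 4.34e-05). Herc6, the ligase that attaches Isg15 to its targets in the mouse (Entrez 67138), was at 6.36 and 5.61 CPM in WT Ctrl, 2.59 and 3.35 for KO1 Ctrl, with 2.61 and 2.28 for KO2 Ctrl. With Myc it was at 5.53 and 4.61 in WT and 1.16 to 2.49 in KO. It was called lower in all 4 comparisons of KO with WT, by 1.00 to 1.67 on the log2 scale, and in KO1 Ctrl the call was lost without KO1 Ctrl replicate 1 (log2FC −0.83). Trim25, which ubiquitinates RIG-I, was at 62.1 to 75.2 CPM with Ctrl and 76.7 to 91.1 with Myc and was called in no comparison of KO with WT.

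In the PARP family, enzymes and relatives of ADP-ribosylation, Parp12 (Entrez 243771, chr6:39036409-39068348, minus strand) was nearly lost from the KO lines. It had 51 and 52 counts in WT Ctrl, 1 and 2 for KO1 Ctrl, with 0 and 0 for KO2 Ctrl. In WT Myc it had 86 and 123 counts, in KO1 Myc 3 and 2, and in KO2 Myc 1 and 2. WT was higher by a ratio of 36.1 against KO1 Ctrl (95% counting interval 12 to 178), and KO2 Ctrl was at least 18.3-fold lower than WT, computed at 3 counts per library. With Myc the ratios were 43.2 (18.2 to 135) against KO1 and 75.5 (25.5 to 369) against KO2. Between the WT groups it was higher in WT Myc, at 5.59 and 7.28 CPM, than in WT Ctrl, at 3.60 and 3.56 (log2FC 0.85, adjusted p = 0.00118). The call was lost without either WT Ctrl library or WT Myc replicate 2, and with DESeq2. Parp14 (Entrez 547253) was at 2.33 and 2.39 CPM in WT Ctrl, 2.79 and 2.83 for KO1 Ctrl, with 0.588 and 0.911 for KO2 Ctrl. In WT Myc it was at 5.72 and 7.10, in KO1 Myc at 0.465 and 0.679, and in KO2 Myc at 2.02 and 1.99. With Ctrl it was therefore low in KO2 alone (log2FC −1.65, adjusted p = 0.000208), and with Myc lower in KO1 than in KO2.

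Parp9 and Dtx3l, whose proteins form a complex of a PARP and a ubiquitin ligase, start 681 bases apart on opposite strands of chromosome 16, and their gene models overlap. Parp9 was at 9.96 and 8.34 CPM in WT Ctrl, 12.04 and 15.31 for KO1 Ctrl, 13.13 and 11.84 for KO2 Ctrl, 20.42 and 19.99 in WT Myc, and 9.65 to 11.6 in KO Myc. It was called higher in KO1 Ctrl than in WT Ctrl (log2FC 0.58, adjusted p = 0.00199), a call lost without KO1 Ctrl replicate 2 (0.40) or WT Ctrl replicate 2 (0.46), and not in KO2 Ctrl. Dtx3l was at 8.62 and 9.43, at 11.31 and 11.37, at 11.3 and 10.28, at 15.3 and 20.4, and at 10.6 to 12.2 in the same groups. Both were higher in WT Myc than in WT Ctrl (log2FC 1.14 and 0.99, adjusted p = 2.64e-06 and 1.8e-05) and not called between Myc and Ctrl in either KO line, and the interaction was called in both lines (−1.51 and −1.42 for Parp9, −0.96 and −0.93 for Dtx3l). Whether the counting used strand is not given in the sources used here, so reads from the shared stretch may count for either gene.

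Of the interferon-inducible GTPases, which act on membranes around intracellular pathogens, only Irgm1 (Entrez 15944) was abundant. It was at 32.8 and 32.5 CPM in WT Ctrl, 63.4 and 56.7 for KO1 Ctrl, with 46.4 and 47.9 for KO2 Ctrl. WT Myc libraries had 54.6 and 59.8, those for KO1 Myc 26.6 and 29.8, and those for KO2 Myc 52.6 and 49.4. WT Ctrl and KO1 Myc were the low groups. The log2FC was 0.88 in KO1 Ctrl (adjusted p = 1.16e-07), 0.53 in KO2 Ctrl (adjusted p = 4.33e-05) and −1.02 in KO1 Myc against WT Myc (adjusted p = 9.3e-08). Gbp2, Gbp3 and Igtp had at most 21 counts in any library.

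Cxcl10, the chemokine that draws activated T cells (Entrez 15945), was at 5.51 and 5.67 CPM in WT Ctrl, 1.66 and 1.77 for KO1 Ctrl, with 3.98 and 2.80 for KO2 Ctrl. WT Myc libraries had 23.7 and 18.5, and the 4 KO Myc libraries 2.79 to 4.58. The WT Myc libraries were thus far above all others. The log2FC was −1.70 in KO1 Ctrl (standard error 0.251, adjusted p = 1.91e-05) and −0.72 in KO2 Ctrl (adjusted p = 0.0086, lost without KO2 Ctrl replicate 2, without either WT Ctrl library and with DESeq2). In WT, Myc against Ctrl gave 1.91 (standard error 0.158, adjusted p = 6.24e-08). Against WT Myc it fell by 2.88 in KO1 Myc and 2.37 in KO2 Myc on the log2 scale (adjusted p = 3.08e-09 and 5.83e-09). Lgals3bp was within 72.2 to 117.4 CPM in all 12 libraries, with falls of 0.27 in KO1 Ctrl and of 0.28 and 0.40 in KO1 and KO2 Myc against WT. The call in KO1 Ctrl was lost without WT Ctrl replicate 1 (log2FC −0.16) or either KO1 Ctrl library, and that in KO1 Myc without either KO1 Myc library (−0.21 and −0.32).

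Between the KO lines with Ctrl, 7 members were called higher in KO1 and 1 lower, against 9.96% and 8.33% of all genes. The largest called differences among members with at least 1 CPM were those of Parp14 (log2FC 1.90), Ifit2 (1.47), Nmi (0.79), Stat2 (0.66) and Ifi27 (0.43), and Oasl1 was lower in KO1 by a ratio of 22.2 (95% counting interval 5.79 to 189). The calls of Stat2, Ifi27 and Ifih1 were lost without any 1 of the 4 libraries and with DESeq2, and those of Nmi and Irgm1 without any 1 of 3 of them.

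Within the KO lines the response to the Myc vector depended on the Ctrl libraries used. In KO1, 5 members were called higher with Myc and 11 lower, against 17.9% and 18.2% of all genes. In KO2, 7 were called higher and 4 lower, against 20.2% and 18.6%. Against the Ctrl libraries of the other KO line the calls fell to 9 and 7 of 37 (24.3% and 18.9%), where 29.5% and 28.8% of all genes were called. For Samd9l (log2FC −1.92 in KO1 and −1.10 in KO2), Ddx58 (−0.65 and −0.76) and Bst2 (1.2 and 1.10) the direction was the same in both lines and the calls were kept with the other Ctrl libraries. Ifit2 changed by −0.81 in KO1 and 1.64 in KO2 on the log2 scale, and by 0.66 and 0.17 with the other Ctrl libraries. Parp14 changed by −2.29 and 1.41, and by −0.39 and −0.49 with the other Ctrl libraries. Oasl1 was higher with Myc in KO1 by a ratio of 6.79 (95% counting interval 1.58 to 61.2, on 7 and 8 counts against 1 and 1), a call lost without any 1 of the 4 libraries and with DESeq2, and lower in KO2 by a ratio of 10.3 (4.08 to 33.1). With the other Ctrl libraries both groups of the second comparison were at or under 3 counts, so that no fold is given. Ifit2 and Parp14 thus each kept the sign in only 1 of the lines.

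The interaction, that is the response to Myc in KO minus that in WT, was called for 21 members in KO1, 2 higher and 19 lower, against 19.2% and 18.1% of all genes. In KO2 it was called for 12 members, 1 higher and 11 lower, against 16.6% and 16.2%. Among members with at least 1 CPM the most negative values in KO1 were those of Parp14 (−3.73), Rtp4 (−3.10), Ifit2 (−2.51), Samd9l (−2.16) and Stat2 (−2.14), and the value of Rtp4 was not called without KO1 Ctrl replicate 1 (−2.26). With the Ctrl libraries of the other line they were −1.83, −1.77 (not called), −1.04, −2.03 and −1.48 in the same order. In KO2 Oasl1 was among them, with a fitted value that rests on 2 and 3 counts in KO2 Myc and is no bound, and the others were Cxcl10 (−1.65), Parp9 (−1.42), Ddx58 (−1.38) and Samd9l (−1.35). With the other Ctrl libraries these 4 were −0.67 (not called), −1.56, −1.29 and −1.48. Adar was positive in both, at 0.76 and 0.37, since it was lower in WT Myc than in WT Ctrl, though the call in KO2 was lost without any 1 of 4 of the 8 libraries, with values from 0.30 to 0.40. With the Ctrl libraries of the other line, 14 members (37.8%) were called for each, against 30.8% and 29.3% of all genes, and the direction of Oasl1 turned over in both lines.

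In the HU experiment fewer members were measured and fewer were called. In untreated cells 0 of 22 were called higher in KO than in WT and 4 lower, while 3.07% of all genes were called higher and 2.52% lower. The median log2FC was −0.67, against −0.000128 for all genes. Under HU, again 0 were called higher and 4 lower, against 3.27% and 2.77% of all genes, with a median of −0.59, against −0.0069. Below 0 lay 17 of the 22 members in untreated cells and 18 under HU, and the share of all genes below 0 was not counted.

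Parp12 and Herc6 had the largest called differences. Parp12 had 16 and 15 counts in untreated WT and 8 and 26 in WT under HU, and Herc6 had 10 and 24, and 14 and 18. In the 4 KO libraries both were listed at 0, which at 3 counts per library makes Parp12 at least 5.62-fold lower untreated and 5.14-fold under HU, and Herc6 at least 5.99-fold and 4.76-fold lower. Both were called (adjusted p = 0.000784 and 0.00102 for Parp12, 0.000397 and 0.00112 for Herc6). The calls under HU were lost without WT HU replicate 2 or without either KO HU library. Untreated, that of Parp12 was lost without either KO library, and that of Herc6 without WT untreated replicate 2 or KO untreated replicate 2. Most small counts of this table are even, and with all counts divided by 2 neither gene passed the filter on low counts, so neither was tested, and the bounds became 2.92 and 2.57 for Parp12 and 3.02 and 2.38 for Herc6. In the Myc experiment Herc6 was at 1.16 to 3.35 CPM in every KO library, so it was reduced there and absent from the reads here.

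Lgals3bp was at 120.8 and 113.2 CPM in untreated WT, 100.9 and 102.9 in WT under HU, 50.8 and 73.8 in untreated KO, and 62.2 and 58.5 in KO under HU. All KO libraries lay below all WT libraries (log2FC −0.90 untreated, adjusted p = 4.21e-05, and −0.75 under HU, adjusted p = 0.000602). The call under HU was lost without either WT HU library or KO HU replicate 2 (−0.71 to −0.77). Tmem173 was at 38.5 and 59.8 in untreated WT and 27.7 and 20.7 in untreated KO (log2FC −1.04, adjusted p = 0.00123), a call lost without WT untreated replicate 2 (−0.69) or KO untreated replicate 2 (−0.83) and with DESeq2. Under HU it was at 51.54 and 45.02 in WT and 26.9 and 35.6 in KO, and was not called. Of the members that differed between KO and WT in the Myc experiment with Ctrl, Ifit2 did not differ here beyond its spread, with 3.01 to 11.1 CPM in WT and 2.37 to 4.95 in KO (log2FC −0.65 and −0.43, not called). Stat2 and Irf9, at 2.44 to 6.23 CPM in all 8 libraries, were called in no comparison.

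HU raised 2 members in WT cells, against 6.39% of all genes called higher, and lowered 0, against 3.44% (adjusted p under 0.05). Irf1 rose from 39.0 and 40.6 CPM to 69.4 and 70.0 in WT (log2FC 0.81, standard error 0.193, adjusted p = 0.00228). In KO it was at 34.6 and 31.1 untreated and 40.3 and 37.9 under HU, a difference that was not called (log2FC 0.26). Under HU the KO libraries were therefore lower than WT (log2FC −0.83, adjusted p = 0.00166), though this call was lost without any 1 of the 4 libraries, and the interaction was −0.55 and not called. Cxcl10 had 2 and 0 counts in untreated WT and 14 and 17 under HU, a ratio of 12.8 with a 95% counting interval of 3.27 to 111 (adjusted p = 0.00564, lost without WT untreated replicate 2). With counts divided by 2 the ratio was 13.2 (2.06 to 555) and the call was kept. In KO it was at 1.63 and 2.67 CPM untreated and 22.6 and 11.5 under HU (log2FC 2.94, standard error 0.584, adjusted p = 0.000221, lost without KO HU replicate 1 at 2.37). It was the only member called in KO, where 4.65% of all genes were called higher and 1.8% lower. Between the lines under HU, Cxcl10 averaged 17 CPM in KO and 5.17 in WT, a difference that was not called. With counts divided by 2 it was called higher in KO (log2FC 1.7, adjusted p = 0.00334, edgeR). For the interaction of HU and KO edgeR called 0 of 22 members, against 0.0446% of all genes called higher and 0.0268% lower. At an unadjusted p under 0.05 it also had 0 members, beside 602 of 11210 genes. DESeq2 called 0 members, beside 5 of 11210 genes. With shares so small, 0 of 22 does not set the members apart from all genes.

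**Figure D4:**
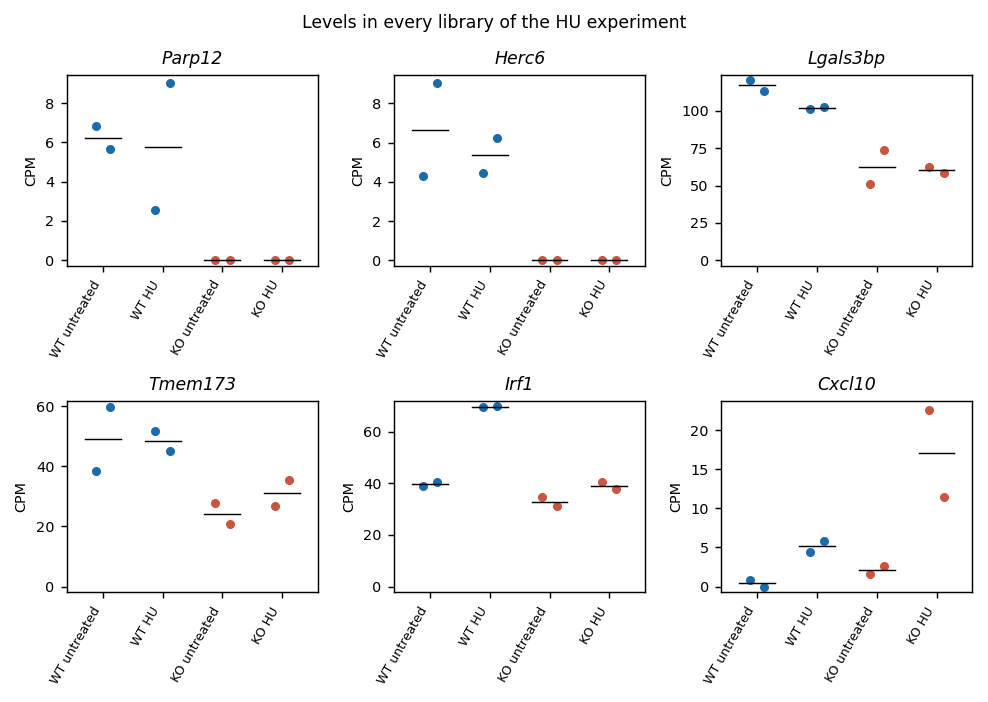
CPM (vertical axis, from 0) of 6 interferon-stimulated genes in each library of the 4 groups of the HU experiment (horizontal axis, blue for WT and red for KO), with bars at the mean of the 2 libraries. Parp12 and Herc6 are at 0 in every KO library, Irf1 is highest in WT under HU, and Cxcl10 is higher under HU than untreated in both lines.

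The receptors, kinases and signal transducers above these genes were described by a list of 39, of which 29 were in each table. In KO1 Ctrl 12 of the 29 were called higher and 5 lower than in WT Ctrl, in KO2 Ctrl 8 and 5, and in WT Myc against WT Ctrl 10 and 2, where of all genes 25.5% and 26.7%, 23.3% and 26.6%, and 21.6% and 22.7% were called higher and lower. In KO1 Myc against WT Myc 1 was called higher and 8 lower, and in KO2 Myc 3 and 7, against 12.6% and 12.5%, and 17.2% and 18%, of all genes. The only gene of this list called in the same direction in both KO lines with an absolute log2FC of at least 1 was Tlr3, the endosomal sensor of double-stranded RNA. It was at 0.989 and 1.16 CPM in WT Ctrl, 7.79 and 7.95 for KO1 Ctrl, with 2.09 and 2.41 for KO2 Ctrl (log2FC 2.86 and 1.06). With the HU libraries 0 of the 29 were called between untreated KO and WT and 1, lower, under HU, against 2.52% and 2.77% of all genes called lower.

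Of a list of 64 further interferon-stimulated genes, 44 were in the table of the Myc experiment. In KO1 Ctrl 20 were called higher and 10 lower than in WT Ctrl, in KO2 Ctrl 15 and 4, and in WT Myc 16 and 5, out of 44, beside the same shares of all genes (25.5% and 26.7%, 23.3% and 26.6%, and 21.6% and 22.7%). In KO1 Myc against WT Myc 1 was called higher and 17 lower, and in KO2 Myc 5 and 17, beside 12.6% and 12.5%, and 17.2% and 18%, of all genes. The genes called the same way in both KO lines with an absolute log2FC of at least 1 were led by Ifi203, Pml, Tgtp1 and Gbp9 among the rises and by Slfn2, Rnf213 and Trim26 among the falls. Slfn2, a regulator of cell quiescence, was at 247.3 and 232.2 CPM in WT Ctrl, 30.1 and 33.1 for KO1 Ctrl, with 93.9 and 85.9 for KO2 Ctrl (log2FC −2.92 and −1.42). Rnf213, a large ubiquitin ligase, was at 194.0 and 178.4 in WT Ctrl and 49.8 to 67.2 in the KO Ctrl libraries (log2FC −1.83 and −1.51). Pml, which organizes nuclear bodies, was at 38.0 and 42.0 in WT Ctrl and 81.4 to 102.3 in the KO Ctrl libraries (log2FC 1.28 and 1.08). Gbp9 was listed at 0 in both WT Ctrl libraries and at 0.911 to 1.18 CPM in the KO Ctrl libraries. The HU table held 30 of the 64, and in KO 0 were called higher and 6 lower untreated, and 0 and 4 under HU, beside 3.07% and 2.52%, and 3.27% and 2.77%, of all genes. Ifi203, Tgtp1 and Gbp9 belong to families of near-identical copies, between which the counting may have split reads.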

How the data were processed

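RNA-seq libraries of p19/Nras cells were aligned by the authors with STAR 2.5.4 to mm9, per the submitters' processing notes, which also name FastQC 0.11.5, bcl2fastq 2.20 and edgeR 3.26.8. The authors deposited counts, whole numbers of reads per gene, in 1 table per experiment. How reads were assigned to genes, and with which annotation, is not given in the sources used here. The authors' own comparisons (log2 fold change, average log2 CPM, F statistic, p-value and adjusted p-value) were not used. The number of unassigned columns of values per sample was 0.

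edgeR 4.0.16 (with limma 3.58.1, R 4.3.3) gave the main results and DESeq2 1.42.0 an alternative. A separate quasi-likelihood model was fitted to each experiment, holding all its groups, after TMM normalization (factors 0.958 to 1.02). Benjamini-Hochberg adjustment ran across every gene of a table, of which 298 and 168 have no symbol. filterByExpr removed 0 genes. Genes were called at an adjusted p under 0.01, or under 0.05 for HU against untreated and its interaction with KO. The coefficients of variation common to all genes were 0.0498 and 0.102. CPM values use TMM library sizes. For groups with no library above 3 counts, a ratio with a 95% interval, or for 0 counts a bound at 3 counts per library, is given where 2 groups are compared. Fitted values of such groups, interactions included, are no bounds. These intervals cover counting error only. In the HU table most counts of 1 to 50 are even, so counts divided by 2 were tried as well. The procedure was tested on simulated data.

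Values in every library are given for Stat2, Irf1, Irf7 and Irf9, for up to 5 called members with the largest rise and fall in each comparison at a mean of at least 1 CPM, and, for further lists, for genes called alike in both KO lines with an absolute log2FC of at least 1. Other members were added by role after their values were seen. The members and lists were chosen with earlier results of these data known. Libraries with the same replicate number did not deviate together, so no block was used. Positions come from GENCODE vM1 on mm9 and promoters from RefSeq. Exon lengths are those of the union of GENCODE exons. Figures were drawn with matplotlib.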

Additional observations from a re-analysis of the deposited data

Results flagged for a closer look

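Between the KO lines with the Ctrl vector, 8 members differed by the test of the difference itself (edgeR, adjusted p under 0.01). The log2FC of KO1 against KO2 was 0.662 for Stat2, 0.349 for Irgm1, 0.426 for Ifi27, 1.9 for Parp14, 1.47 for Ifit2, 0.789 for Nmi, 2.2 for Ifih1 and −4.32 for Oasl1. The last is a fitted value on 1 count in each KO1 library and no bound, the ratio being 22.2 (95% counting interval 5.79 to 189). Stat2, Ifi27 and Ifih1 were lost without any 1 of the 4 libraries and with DESeq2, and Nmi and Irgm1 without any 1 of 3.

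The response to the Myc vector differed between KO1 and WT for 21 members by the interaction term. The values were −2.14 for Stat2, −1.9 for Irgm1, −0.759 for Irf1, −2.87 for Dhx58, −0.938 for Ifi27, −0.671 for Irf9, −3.1 for Rtp4, −3.73 for Parp14, −0.962 for Dtx3l, −1.51 for Parp9 and −0.577 for Eif2ak2. They were −0.525 for Tmem173, −2.51 for Ifit2, −4.61 for Ifit3, −1.23 for Ifit1, −5.67 for Ifih1, 0.757 for Adar, −1.26 for Ddx58, −1.18 for Cxcl10, 2.65 for Oasl1 and −2.16 for Samd9l. Those of Oasl1, Ifih1 and Dhx58 rest on groups of at most 3 counts a library and are no bounds. Dhx58 was lost without any 1 of the 8 libraries, Oasl1 and Cxcl10 without any 1 of 7, Ifit1 without 5, Irf9 and Eif2ak2 without 4, and Rtp4 without 1, and DESeq2 did not call Dhx58, Oasl1, Ifit1 and Irf9. With the Ctrl libraries of KO2, Dhx58, Ifi27, Irf9, Rtp4, Eif2ak2, Ifit3, Ifit1 and Ifih1 were not called and Oasl1 turned over.

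The response differed between KO2 and WT for 12 members. The values were −1.14 for Stat2, −0.697 for Irgm1, −0.838 for Irf1, −0.784 for Ifi27, −0.929 for Dtx3l, −1.42 for Parp9, −0.882 for Tmem173, 0.369 for Adar, −1.38 for Ddx58, −1.65 for Cxcl10, −3.27 for Oasl1 and −1.35 for Samd9l. That of Oasl1 rests on 2 and 3 counts in KO2 Myc and is no bound. Adar was lost without any 1 of 4 libraries and with DESeq2, and Stat2 without 2. With the Ctrl libraries of KO1, Cxcl10 was not called (−0.67) and Oasl1 turned over. These values rest on the labels of the Myc libraries, which Trim33 mRNA went against in KO1 Myc.

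For some members KO lay on one side of WT in the untreated HU libraries and on the other in the Ctrl libraries, without overlap. The share of all genes that did so was not counted, and the difference between experiments was not tested. The log2FC of untreated KO against WT was 3.61 for Bst2, 2.32 for Cxcl10, −0.583 for Ddx58, −0.9 for Dtx3l, −0.282 for Irf1, −1.51 for Parp9 and −1.87 for Samd9l, none of which was called. The first 2 are fitted on 0 and 2 counts in WT, where the ratios were 13.7 (95% counting interval 3.49 to 119) and 5.5 (1.22 to 50.6).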

How the results depend on the processing

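Of the values of single members under all alternatives, 2038 kept their direction and side of the threshold. Another 325 kept the direction but missed the threshold, and 8 turned over. Some of the 2038 could not have changed. The filter on low counts removed 0 genes, so the alternative without it was the same fit. A threshold of 0.05 cannot lose a call made at a stricter one. The 2038 are therefore no measure of how firm the calls were. All 8 that turned over arose with the Ctrl libraries of the other KO line. There Ifit2 was 0.661, Nmi 0.0815 and Oasl1 −1.69 for KO1 Myc against Ctrl, and Parp14 −0.487, Ifih1 −0.156 and Oasl1 1.03 for KO2 Myc against Ctrl. The interaction of Oasl1 became −1.67 for KO1 and 1.05 for KO2. The values of Oasl1 for KO2 are fitted on libraries of 1 to 3 counts and are no bounds. Those for KO1 rest on 7 and 8 counts in KO1 Myc against 25 and 20 in KO2 Ctrl. Both were called in the turned direction (adjusted p = 0.00147 and 0.00284, edgeR). The members called in these Myc against Ctrl comparisons became 9 and 7. With an absolute log2FC of at least 1, where 4.99% to 15.9% of all genes were called in the Myc experiment and at most 3% in the HU experiment, the members called were 8 for KO1 Ctrl against WT, 9 for KO2 Ctrl against WT, 4 between the KO lines, 9 in WT Myc against Ctrl, 7 in KO1 and 7 in KO2 Myc against Ctrl, 17 in KO2 Myc against WT Myc, 6 for the interaction in KO2, 2 under HU between KO and WT, and 1 for HU in WT. With a mean of at least 5 CPM, where fewer members are tested and 18.7% to 55.3% of all genes were called in the Myc experiment, they were 11, 10 and 4 in the first 3 of these, 6 in KO2 Myc against Ctrl, 12 and 13 in KO1 and KO2 Myc against WT Myc, and 2 in untreated KO against WT. For untreated KO against WT the share of all genes was then 5.82%. At a threshold of 0.05, 8 members were called in untreated KO against WT, beside 12% of all genes. With HU counts divided by 2, 14 members were tested and 3, 3, 2 and 1 were called in untreated KO, KO under HU, HU in WT and HU in KO. Of all genes, 6.04%, 6.94%, 11.1% and 7.22% were called in the same order. Of the 3 in KO under HU, Cxcl10 was higher in KO, and it was not called with the full counts. At a mean of at least 5 CPM, at a threshold of 0.05 and with the compared groups alone, 1 member was also called higher there. Of all genes 5.95%, 11% and 10% were called in either direction in these settings. Leaving out 1 library at a time left 1 library in a group. Between the KO lines, fewer members and fewer of all genes were then called. The same held for Myc against Ctrl in KO1 and KO2, and for KO against WT under HU. For untreated KO against WT, and for HU in WT and in KO, the count of members depended on the library left out. With the replicate number as a block, 17 members were called in KO1 Ctrl, where Ifit3 was lost, and 6 in untreated KO. Of all genes 52.7% and 7.06% were called there. The other counts of members did not change. The numbers did not pair the samples, since same-numbered libraries had correlations of deviations from −0.215 to 0.28. Apart from the other Ctrl libraries and these filters, the cause of each change was not tested. The HU libraries hold fewer reads, so members near 0 counts there could not be resolved.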
